A study of Canis lupus familiaris with 17 samples.

Results

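The S100 genes described here were chosen by name. Of 8 S100 genes sought by symbol (S100A12, S100A8, S100A9, S100P, S100A4, S100A6, S100A10 and S100A11), 4 had an entry among the 20257 genes counted in every dog, namely S100A12 (ENSCAFG00000023324), S100A8 (ENSCAFG00000017557), S100P (ENSCAFG00000014333) and S100A11 (ENSCAFG00000012916). No counted gene bears the symbol S100A9, S100A4, S100A6 or S100A10, and these were not analysed here. In a reference annotation of another dog assembly (RefSeq, UU_Cfam_GSD_1.0), S100A8, S100A12 and S100A9 lie next to each other, as do S100A4, S100A5 and S100A6. Genes were matched by symbol alone, and whether any of these 4 was counted under an identifier without a symbol was not tested. Whether the entries S100A8 and S100A5 also hold reads of neighbours without an entry under their symbol was not tested either. Both names therefore stand for the counted entry.

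S100 proteins are small calcium-binding proteins of vertebrates that act inside cells and, for some members, as signals outside them. S100A8 joins S100A9 to form calprotectin, an abundant protein of the neutrophil cytosol that binds zinc and manganese, helps to activate the NADPH oxidase and, once released, engages TLR4 with its co-receptor LY96 (MD-2). S100A12, or calgranulin C, is a myeloid S100 protein that binds the receptor for advanced glycation end products (AGER). S100P is expressed in myeloid cells and several epithelia, and S100A11 is widely expressed and pairs with annexins at membranes.

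Circulating leukocytes of 7 healthy dogs and 10 dogs with osteosarcoma (OS), a malignant bone tumour, were profiled by droplet-based single-cell RNA sequencing, with 1 library per dog. The animals were client-owned pet dogs, all labelled Wt, and the labels give no age, sex or breed. Ages that the study lists for the dogs were used in 1 alternative model. Per the study's methods, the OS dogs carried a primary tumour and had not been treated, and cells were taken from EDTA blood over a Ficoll density gradient, so the granulocytes described are those that stayed with the mononuclear layer. The dog was the replicate throughout.

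The 17 libraries held 93013 cell barcodes, between 1332 in OS dog 3 and 7748 in healthy dog 4, and between 7740230 and 56510134 unique molecular identifiers (UMIs, each 1 captured RNA molecule). A total of 1124 barcode sequences occurred in more than 1 library. After limits on genes, UMIs and mitochondrial share, 84345 barcodes remained, of which 3938 were removed as likely doublets. Median UMIs per cell ran from 3567 in healthy dog 7 to 6648.5 in OS dog 2. Healthy dog 7 stood apart by its neutrophils, which made up 39.3% of its cells against a median of 3.97% in the healthy group and 4.56% in the OS group.

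Cells were clustered without the S100 genes and without the receptor, annexin and NADPH oxidase genes that were examined with them. Each cluster was called "X-like" from marker lists, and the suffix is left out from here on. Many listed genes, and all those of the PMN-MDSC list, are markers that the study reports from these same dogs. A high sum of a list in the class named with it therefore follows in part from the naming. The polymorphonuclear myeloid-derived suppressor cell (PMN-MDSC) cluster was led by CAMP, PGLYRP1, LTF, CRISP2, MMP8, FADS1 and MMP9, which encode neutrophil granule proteins among others, and the neutrophil cluster by CD4, CYP4F22, IL1R2 and ADGRE3 among others. CD4 is a marker of canine neutrophils as well as of helper T cells. The median CAMP level was 41416 CPM (UMIs of the gene per 1000000 UMIs of the class) in PMN-MDSC and 1.95 CPM in neutrophils, while CSF3R, the G-CSF receptor, stood at 12.96 CPM in PMN-MDSC and 270 CPM in neutrophils. The 9 PMN-MDSC markers summed to between 81418 and 91149 CPM over dogs in PMN-MDSC and to between 225 and 870 CPM in neutrophils. The 10 neutrophil markers summed to between 1469 and 2130 CPM in PMN-MDSC and to between 21622 and 27629 CPM in neutrophils, and the 12 monocyte markers to between 8827 and 11513 CPM and between 1238 and 3139 CPM. Of the monocyte markers 5 had a median over 10 CPM in PMN-MDSC and 4 in neutrophils, and the part of these lists in the S100 values was not tested. A monocytic MDSC (M-MDSC) cluster, led by CYP4F22, CD4, LTF, IL18, ALOX5, ADGRE3, ISG20 and THBS1 among others, shared several leading genes with the neutrophil cluster. The neutrophil markers summed to a median of 10508 CPM in M-MDSC, 23432 CPM in neutrophils and 5400 CPM in CD4+ monocytes, and the part of this in the M-MDSC values was not tested. The neutrophil list shares CSF3R with the M-MDSC list and CD4 with the CD4+ monocyte list. The naive CD8 T cluster scored higher for the naive CD4 T list than for its own. In all, 21 classes with at least 25 cells in 4 or more dogs were described. Genes expressed together with the class-forming genes follow the classes by construction, so differences between classes describe them and the tests carry that limit.

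Across the classes, S100A12 and S100A8 were highest in PMN-MDSC and then in neutrophils, S100P was highest in PMN-MDSC and otherwise highest in monocytes and neutrophils, and S100A11 varied least, with its highest level in regulatory T cells. S100A12 was above 1000 CPM at the median in PMN-MDSC, neutrophils, M-MDSC and CD4+ monocytes and in no lymphocyte class. S100A8 was in addition high in regulatory, memory and effector T cells. These patterns are shown in the plot of levels by class.

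**Figure D1:**
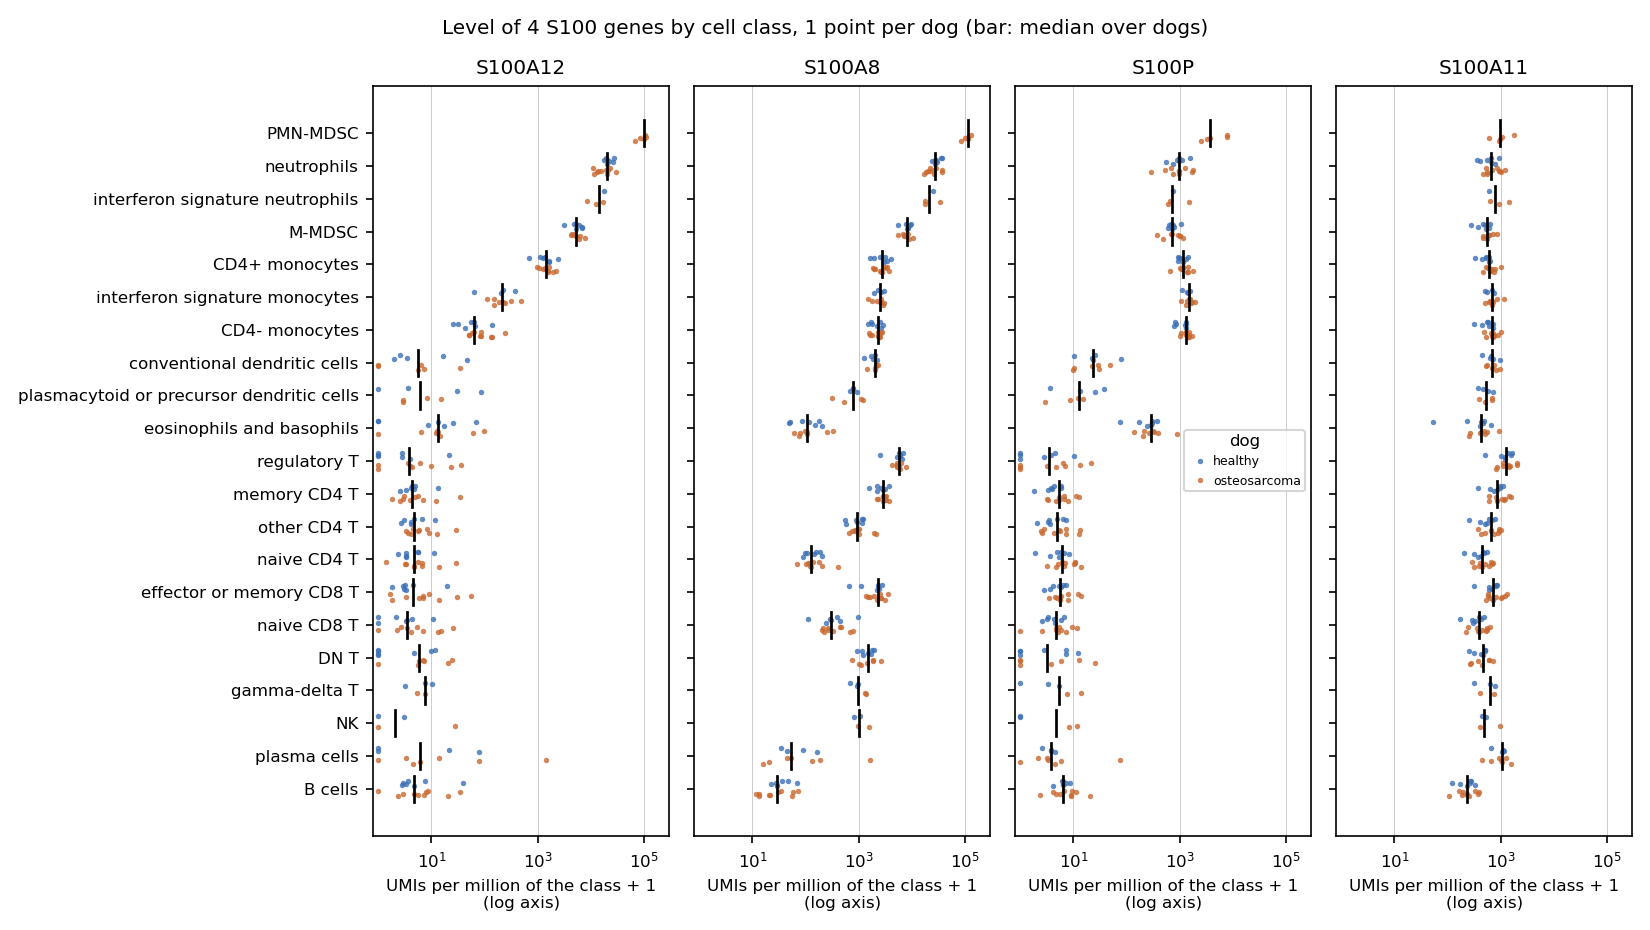
Level of S100A12, S100A8, S100P and S100A11 in each leukocyte class, in CPM plus 1 on a log axis, with 1 point per dog (healthy and OS dogs in separate colours) and the median as a bar. PMN-MDSC hold the highest S100A12, S100A8 and S100P, at medians of 103401, 115140 and 3754 CPM, while S100A11 is highest in regulatory T cells at 1291 CPM.

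S100A12 ranged from 70006 to 110314 CPM in PMN-MDSC over 5 dogs, with a median of 103401 CPM. Neutrophils, here without those of interferon signature, ranged from 11194 to 30211 CPM over 17 dogs, with a median of 20367 CPM. No dog's neutrophils reached the lowest PMN-MDSC value. Interferon signature neutrophils followed at 8385 to 17645 CPM (median 14681, 4 dogs) and M-MDSC at 3169 to 7768 CPM (median 5322, 15 dogs). CD4+ monocytes ranged from 690 to 2418 CPM (median 1425, 17 dogs), interferon signature monocytes from 61.5 to 489 CPM (median 213, 12 dogs), and CD4- monocytes from 24.5 to 241 CPM (median 63.4, 17 dogs). In this order each class exceeded the next by more than the spread over dogs. The mean within-dog difference on the log2(CPM + 1) scale was 2.21 (SD 0.24) from PMN-MDSC to neutrophils, 1.37 (SD 0.39) from interferon signature neutrophils to M-MDSC and 2.84 (SD 0.74) from CD4+ to interferon signature monocytes. Eosinophils and basophils stood at 12.08 CPM (0 to 95.9, 15 dogs). The lymphocyte classes had medians between 1.01 CPM in NK cells and 6.52 CPM in gamma-delta T cells, and neighbours at that level mostly did not differ beyond their spread.

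S100A8 ranged from 84814 to 131764 CPM in PMN-MDSC (median 115140), from 17409 to 38128 CPM in neutrophils (median 27706) and from 5522 to 10597 CPM in M-MDSC (median 8046), with a median of 21610 CPM in interferon signature neutrophils. PMN-MDSC exceeded neutrophils by 1.93 (SD 0.22) on the log2(CPM + 1) scale within dogs. The next class was not myeloid. Regulatory T cells held 2564 to 7841 CPM over 16 dogs, with a median of 5858 CPM, lower than M-MDSC in 14 of 15 dogs by a mean of 0.53 (SD 0.31) on that scale. Memory CD4 T cells held a median of 2857 CPM (1553 to 3789), which was lower than regulatory T cells in 16 of 16 dogs. They stood beside CD4+ monocytes at 2768 CPM (1672 to 4025), interferon signature monocytes at 2561 CPM, effector or memory CD8 T cells at 2348 CPM (649 to 3590) and CD4- monocytes at 2347 CPM, and neighbours in this range did not differ beyond their spread. Naive CD8 T cells held 300 CPM (109 to 975), naive CD4 T cells 126 CPM (67.1 to 416), eosinophils and basophils 105 CPM (47.99 to 326) and B cells 28.6 CPM (10.9 to 70.5). The S100A8 entry thus spanned all 21 classes without a zero in any dog described.

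S100P ranged from 2522 to 7698 CPM in PMN-MDSC (median 3754). Interferon signature monocytes (median 1472 CPM, 1059 to 1933), CD4- monocytes (1297 CPM, 779 to 1704), CD4+ monocytes (1136 CPM, 654 to 1755) and neutrophils (966 CPM, 284 to 1751) followed with overlapping ranges. Unlike S100A12, S100P was therefore not ordered with neutrophils above monocytes. Eosinophils and basophils stood at 289 CPM (74.1 to 875), above conventional dendritic cells at 21.8 CPM by 3.54 (SD 0.97) on the log2(CPM + 1) scale in 11 dogs. Lymphocyte and plasma cell medians lay between 2.24 and 5.48 CPM.

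S100A11 was found in every class at medians between 236 CPM in B cells (106 to 395) and 1291 CPM in regulatory T cells (506 to 2057). Plasma cells (1051 CPM), PMN-MDSC (964 CPM) and memory CD4 T cells (867 CPM) came next, then interferon signature neutrophils (790 CPM), effector or memory CD8 T cells (710 CPM), interferon signature monocytes (683 CPM), CD4- monocytes (682 CPM), conventional dendritic cells (675 CPM) and neutrophils (664 CPM). Naive CD8 T cells (383 CPM) exceeded B cells in 17 of 17 dogs by 0.70 (SD 0.33) on the log2(CPM + 1) scale, while most neighbours higher in the order did not differ beyond their spread.

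S100A8 and S100A12 together made up a large part of the RNA of single PMN-MDSC. In the median cell of a dog, they supplied between 15.2% and 24.2% of all UMIs in PMN-MDSC (median over dogs 20.96%), and 40.1% in the cell with the highest share. The corresponding medians were 4.17% in neutrophils, 1.16% in M-MDSC, 0.525% in regulatory T cells and 0% in eosinophils and basophils.

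PMN-MDSC and neutrophils were compared within the 5 OS dogs that had at least 25 cells of each, with interferon signature neutrophils counted among the neutrophils from here on. All 4 S100 genes were higher in PMN-MDSC in every one of these dogs. S100A12 stood at 104826, 110314, 85063, 103401 and 70006 CPM in PMN-MDSC of OS dogs 2, 4, 5, 7 and 9, against 20715, 29912, 20360, 19084 and 12882 CPM in their neutrophils. The groups did not overlap, and the fold within a dog ran from 3.69 in OS dog 4 to 5.43 in OS dog 9. S100A8 stood at 131764, 116272, 100039, 115140 and 84814 CPM in PMN-MDSC of the same dogs, against 36912, 37978, 25846, 26935 and 17842 CPM in neutrophils. These groups did not overlap either, with folds between 3.06 and 4.75.

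S100P reached 7698, 7667, 3754, 3337 and 2522 CPM in PMN-MDSC and 1720, 1674, 761, 513 and 265 CPM in neutrophils of the same dogs. The fold was 4.48 in OS dog 2 and 9.52 in OS dog 9, the dog with the lowest S100P in both classes. S100A11 stood at 1776, 1057, 603, 964 and 934 CPM in PMN-MDSC against 1246, 1021, 554, 687 and 555 CPM in neutrophils. Here the groups overlapped across dogs, and the fold within a dog was 1.04 to 1.68, a median of 0.49 on the log2 scale of CPM and so under the fold limit given next.

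**Figure D2:**
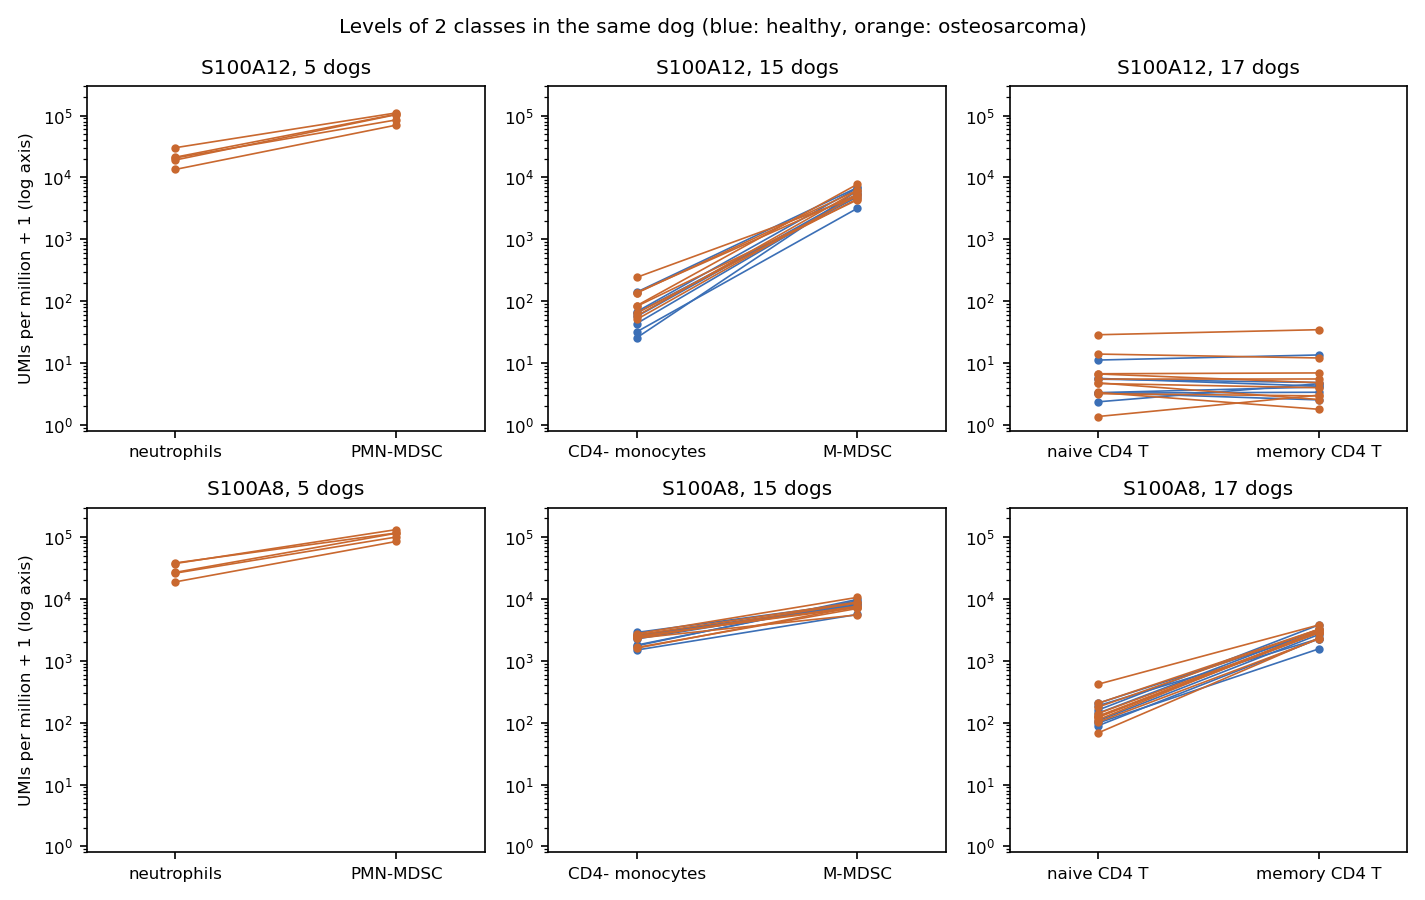
S100A12 (top) and S100A8 (bottom) in 2 classes of the same dog, in CPM plus 1 on a log axis, with a line joining the values of 1 dog (blue healthy, orange OS). Both genes rise from neutrophils (without those of interferon signature) to PMN-MDSC in 5 dogs and from CD4- monocytes to M-MDSC in 15 dogs, whereas from naive to memory CD4 T cells of 17 dogs S100A8 rises (medians 126 and 2857 CPM) and S100A12 stays at medians of 3.78 and 3.24 CPM.

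By edgeR's quasi-likelihood test with dog as a block and Benjamini-Hochberg adjustment over 8501 genes, the log2 fold change was 2.63 (SE 0.17, adjusted p = 4.2e-51) for S100A12, 2.35 (SE 0.17, adjusted p = 3.8e-41) for S100A8, 2.89 (SE 0.16, adjusted p = 1.2e-67) for S100P and 0.79 (SE 0.15, adjusted p = 2.4e-06) for S100A11. A gene was called at an adjusted p under 0.01 and an absolute log2 fold change over 0.58. These values use TMM scaling, and for S100A12, S100A8 and S100A11 they lie above the log2 ratio of CPM in each of the 5 dogs. All 4 were called higher, as were 16% of the genes tested, while 16.4% were called lower and 32.4% in either direction. The comparison exists in OS dogs alone, since no healthy dog had 25 PMN-MDSC. In this fit edgeR used a variance pooled over genes. The SEs and adjusted p-values therefore do not measure each gene's own spread over the 5 dogs.

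The partner genes moved both ways in this comparison. Of 6 receptor and co-receptor genes tested, 3 were lower in PMN-MDSC, namely TLR4 (log2 fold change -3.57), its co-receptor LY96 (-2.48) and the adaptor MYD88 (-1.28), and none was higher. Class levels, here without the interferon signature cells, cover the 5 dogs with 25 PMN-MDSC and all 17 dogs for neutrophils. On these, median TLR4 was 5.56 CPM in PMN-MDSC and 109 CPM in neutrophils, and median LY96 was 34.1 CPM and 274 CPM. The abundant CD69 (0.09) and NPTN (-0.03) did not pass the test. Of 6 annexin and other intracellular partners, ANXA1 (1.22), ANXA2 (1.98) and ANXA6 (2.97) were higher, whereas MYH9 (0.09) did not pass. Among NADPH oxidase subunits, CYBA (1.32) and CYBB (3.41) were higher and NCF4 (-0.87) was lower. Over the same unlike sets of dogs, median CYBB, the catalytic subunit, was 498 CPM in PMN-MDSC and 33.7 CPM in neutrophils without the interferon signature. The median log2 fold change of all genes tested was 0.03.

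Within the monocytes, M-MDSC held more S100A12 and S100A8 and less S100P than the other monocytes of the same dog. S100A12 ranged from 3169 to 7768 CPM in M-MDSC and from 138 to 474 CPM (median 260) in the other monocytes of 15 dogs, without overlap. S100A8 ranged from 5522 to 10597 CPM against 1597 to 3001 CPM (median 2460), again without overlap. S100P ran the other way in 15 of 15 dogs, with a median of 723 CPM (369 to 1150) in M-MDSC and 1304 CPM (800 to 1489) in other monocytes, although the ranges overlapped.

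The log2 fold changes in edgeR's quasi-likelihood test were 4.17 (SE 0.10) for S100A12 and 1.63 (SE 0.08) for S100A8, both called higher, and -0.85 (SE 0.08) for S100P, called lower. Among 13630 genes tested, 9.41% were called higher, 20.6% lower and 30% in either direction. S100A11 differed by -0.38 (SE 0.07, Benjamini-Hochberg adjusted p = 8.8e-06 in edgeR's test), which is under the fold limit, and all genes had a median of -0.24. Among the annexin group AHNAK (-3.22), ANXA1 (-1.09) and ANXA2 (-1.67) were lower and MYH9 (0.80) was higher. Among the NADPH oxidase genes, NCF4 (0.63) and RAC2 (0.64) were higher and CYBB (-1.04) was lower. Of 9 receptor genes 0 were called by edgeR. An unadjusted p under 0.05 in edgeR's test was found for 2 of the 9, against 7131 of all 13630 genes tested.

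CD4+ and CD4- monocytes differed in S100A12, and no other member was called. S100A12 was higher in CD4+ monocytes in 17 of 17 dogs, by a log2 fold change of 4.16 (SE 0.12, adjusted p = 9.6e-31 in edgeR's quasi-likelihood test with Benjamini-Hochberg adjustment), and was called with 5.8% of all genes in that direction. The lowest CD4+ value, 690 CPM, lay above the highest CD4- value, 241 CPM in OS dog 2. S100A8 (0.20, SE 0.05), S100P (-0.20, SE 0.05) and S100A11 (-0.21, SE 0.05) stayed under the fold limit, with 10.9% of genes called lower and 16.7% in either direction. Without correction across dogs S100A8 passed the limit (0.63), and with doublets kept S100P (0.12) and S100A11 (0.08) turned and 877 genes were called in place of 2247. Among partners, AHNAK (-0.85) and ANXA2 (-0.70) were lower in CD4+ monocytes. The neutrophil marker list, which itself holds CD4, summed to a median of 2493 CPM in CD4- monocytes and 5400 CPM in CD4+ monocytes. Its part in the S100A12 difference was not tested.

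Set against all monocytes, neutrophils held between 10846 and 29912 CPM of S100A12 where monocytes held 244 to 862 CPM, and between 17228 and 37978 CPM of S100A8 where monocytes held 1794 to 3204 CPM. Neither pair of ranges overlapped in the 17 dogs. Log2 fold changes were 5.15 (SE 0.16) and 3.29 (SE 0.12), and both genes were called higher by edgeR's quasi-likelihood test, as were 18.7% of genes, while 34.5% were called lower and 53.2% in either direction. S100P differed by -0.54 (SE 0.13), just under the fold limit, and was lower in neutrophils of 13 of 17 dogs. This value passed the limit under 6 of 11 alternative settings, with a range of -0.73 to -0.29, and also without healthy dog 1 (-0.60), 2 (-0.60) or 6 (-0.59) or OS dog 2 (-0.62). S100A11 differed by -0.00 (SE 0.11), with medians of 655 CPM in neutrophils and 681 CPM in monocytes. The median of all genes was -0.37. Among partners, AGER (1.42), CD69 (1.47), MYD88 (1.51), ANXA11 (1.02), MYH9 (1.19), NCF4 (2.31) and RAC2 (2.11) were higher in neutrophils. BSG (-1.88), AHNAK (-6.79), ANXA1 (-2.43), ANXA2 (-2.58), ANXA6 (-1.05) and CYBB (-3.82) were lower. AGER had a median of at most 1.04 CPM in every class, so its level was near that of single UMIs.

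In T cells, S100A8 and S100A11 were higher in memory or effector cells than in naive cells in every dog. S100A12 and S100P stayed at medians of a few CPM in both. The highest dog held 33.6 CPM of S100A12 in memory CD4 and 53.6 CPM in effector or memory CD8 T cells. Memory CD4 T cells held 1553 to 3789 CPM of S100A8 against 67.1 to 416 CPM in naive CD4 T cells. The ranges did not overlap, and the log2 fold change was 4.25 (SE 0.09, adjusted p = 5.3e-30 in edgeR's quasi-likelihood test with Benjamini-Hochberg adjustment). S100A11 held 374 to 1564 CPM against 204 to 724 CPM, with overlapping ranges but a higher value in memory cells of 17 of 17 dogs, by 0.95 (SE 0.03, adjusted p = 4.3e-26 in the same edgeR test). Both were called, in a comparison in which 11.4% of 14146 genes were called higher, 6.86% lower and 18.2% in either direction. S100A12 (-0.06, SE 0.13) and S100P (-0.35, SE 0.15) were not called.

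Effector or memory CD8 T cells held 649 to 3590 CPM of S100A8 against 109 to 975 CPM in naive CD8 T cells, a log2 fold change of 2.41 (SE 0.12). S100A11 was higher by 0.82 (SE 0.05), with medians of 710 and 383 CPM. Each was higher in 17 of 17 dogs and was called in edgeR's quasi-likelihood test, as were 14.1% of genes in that direction, while 9.67% were called lower and 23.8% in either direction. S100A12 (0.69, SE 0.28, adjusted p = 0.041 in edgeR's test) and S100P (0.23, SE 0.20) were not called, although S100A12 was called without correction across dogs (0.91). Of the annexin group, AHNAK (4.04 and 6.15), ANXA1 (2.57 and 3.39) and ANXA2 (2.64 and 2.95) were higher in memory CD4 and in effector or memory CD8 T cells than in their naive counterparts, and so was LY96 (1.26 and 1.67), at a median of 3.64 CPM in memory CD4 T cells. In effector or memory CD8 T cells ANXA6 (0.76) and CYBB (1.15) were also higher and CD69 (-0.98) was lower than in naive CD8 T cells, and in memory CD4 T cells CYBA (0.75) was higher than in naive CD4 T cells.

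Because RNA released from broken cells can enter any droplet, the share of cells with a UMI was compared with that in B cells. S100A8 was found in 96.3% of memory CD4 T cells and 9.77% of B cells in the median dog. After each cell was thinned to 1000 UMIs these were 82.2% and 2.41%, with 100% (thinned 97.8%) in regulatory T cells and 39.7% (thinned 11.4%) in naive CD4 T cells. Median UMIs were 6075 in memory CD4 T cells and 4019 in B cells. S100A12 was found in 2.11% of memory CD4 T cells and 1.80% of B cells (thinned 0.392% and 0.483%), and S100P in 2.77% and 2.26% (thinned 0.422% and 0.610%), so neither is read as expressed in these lymphocytes. S100A11 was found in 97.7% of memory CD4 T cells and 54.5% of B cells (thinned 57.6% and 19.4%).

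Over dogs, the ratio of S100A12 to S100A8 in neutrophils overlapped with that in PMN-MDSC, M-MDSC and CD4+ monocytes. PMN-MDSC lay above CD4+ monocytes without overlap. Within each of the 5 OS dogs with both classes, the ratio was higher in PMN-MDSC than in neutrophils. The fold of PMN-MDSC over neutrophils was larger for S100A12 than for S100A8 in each. It was 4.18 against 3.87 in OS dog 5 and 5.06 against 3.57 in OS dog 2. The ratio in neutrophils exceeded that in CD4+ monocytes in most dogs, but not in healthy dog 7 and OS dogs 8 and 10. PMN-MDSC held 79.6 to 94.9 S100A12 UMIs per 100 S100A8 UMIs (median 85.0), neutrophils 49.7 to 92.7 (median 72.2), M-MDSC 49.5 to 81.8 (median 68.8) and CD4+ monocytes 32.9 to 75.4 (median 55.9). CD4- monocytes stood at 3.03 (1.37 to 15.1). Memory CD4 T cells had a median of 0.113, regulatory T cells 0.0418 and conventional dendritic cells 0.221, so their S100A8 came almost without S100A12. B cells, where S100A8 itself was low, had a median of 14.3 with 57.7 in healthy dog 7 and 60 in OS dog 2.

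**Figure D3:**
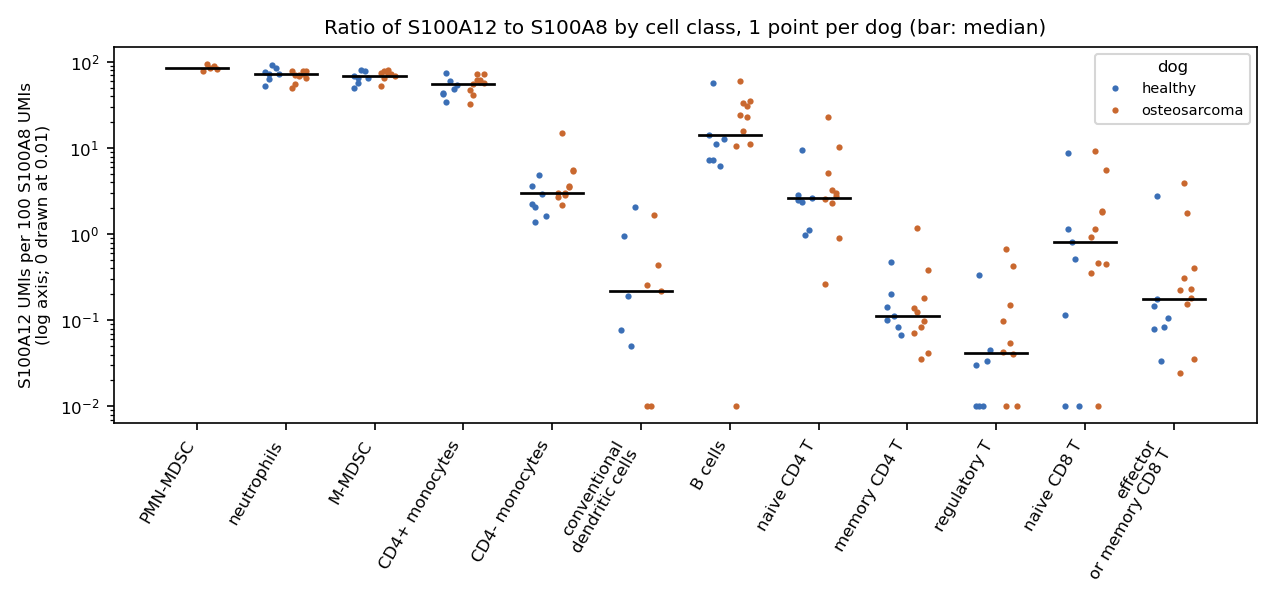
S100A12 UMIs per 100 S100A8 UMIs in 12 classes, on a log axis with ratios of 0 drawn at 0.01, with 1 point per dog and the median as a bar. PMN-MDSC, neutrophils, M-MDSC and CD4+ monocytes have medians of 85.0, 72.2, 68.8 and 55.9, against 3.03 in CD4- monocytes and 0.113 in memory CD4 T cells.

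In the sum of all CD4 T cells, S100A12 was highest in OS dog 2 (30.8 CPM), OS dog 5 (12.4 CPM) and healthy dog 7 (12.0 CPM), and 1.56 to 6.36 CPM in the others. OS dogs 2 and 5 had the 2 highest shares of PMN-MDSC, at 3.65% and 4.42% of their cells, and healthy dog 7 had the highest share of neutrophils, at 39.3%. The next highest shares were 1.91% PMN-MDSC in OS dog 9, whose CD4 T cells held 3.23 CPM of S100A12, and 11.1% and 10.5% neutrophils in OS dogs 8 and 1, with 1.99 and 4.97 CPM. The part of granulocyte RNA in these values was not tested.

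Of 8 other S100 symbols among the genes counted, S100A5 was the most abundant. It was highest in regulatory T cells (median 6856 CPM, 4007 to 8685), followed by CD4- monocytes (2160 CPM), interferon signature monocytes (2022 CPM), memory CD4 T cells (1890 CPM) and effector or memory CD8 T cells (1813 CPM). It stood at 16.7 CPM in PMN-MDSC, 19.3 CPM in neutrophils and 9.65 CPM in M-MDSC, which had high S100A12, and also at 17.2 CPM in naive CD4 T cells, where S100A12 was low. In edgeR's quasi-likelihood tests S100A5 was called lower in M-MDSC than in other monocytes (log2 fold change -7.41, SE 0.14), in CD4+ than in CD4- monocytes (-2.81, SE 0.13) and in neutrophils than in monocytes (-6.43), and higher in memory than in naive CD4 T cells (6.67, SE 0.07) and in effector or memory than in naive CD8 T cells (4.60). S100A2 reached 79.0 CPM in regulatory T cells and 66.6 CPM in memory CD4 T cells, against 0.341 CPM in naive CD4 T cells. S100A13 and S100A14 had highest medians of 26.6 CPM in CD4+ monocytes and 17.1 CPM in regulatory T cells, S100A1 had a highest median of 5.35 CPM in interferon signature monocytes, S100G had 30 UMIs in all cells, and S100A16 had 0, which allows up to 3.

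The genes whose pattern over the 21 classes was most like that of each member were found by Pearson correlation of the mean log2(CPM + 1) over dogs among 10014 genes, a description in which the classes share libraries. S100A12 was closest to MGAM (r = 0.99), ANKRD22 (0.98), MOGAT1 (0.98), ENSCAFG00000029470 (0.98) and QPCT (0.98). S100A8 was closest to FLOT1 (0.92), CIB2 (0.90), IL18RAP (0.85), ARPC4 (0.85) and DNAJB1 (0.83). S100P was closest to NFE2 (0.98), HK3 (0.97), HLX (0.97), PGD (0.97) and SLC16A3 (0.97). S100A11 had no gene above 0.78, the value for CIB2, with ENSCAFG00000044483, ENSCAFG00000015798, PPP1CA and TMED3 between 0.70 and 0.74. Between members, the correlation was 0.87 for S100A12 with S100P, 0.74 for S100A12 with S100A8, 0.65 for S100A8 with S100A11, 0.58 for S100A8 with S100P, 0.31 for S100A12 with S100A11 and 0.19 for S100P with S100A11.

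OS and healthy dogs were compared in 11 sums of cells, from all cells down to single classes, which share dogs and in part cells. No member was called in any of them by edgeR's quasi-likelihood test, and the lowest Benjamini-Hochberg adjusted p of a member was 0.773. Over all genes 0 were called in 10 of the 11 sums and 1 (0.0114%) in eosinophils and basophils, which was not a member. An unadjusted p under 0.05 was found for 5.39% of genes in all cells, 5.51% in myeloid cells, 4.51% in neutrophils, 6.08% in monocytes, 6% in CD4- monocytes, 5.78% in CD4+ monocytes, 5.78% in M-MDSC, 5.46% in eosinophils and basophils, 3.42% in CD4 T cells, 3.69% in CD8 T and NK cells and 4.9% in B cells. Of the 4 members 1 had such a p in all cells, 2 in myeloid cells, 2 in monocytes, 2 in CD4- monocytes, 1 in CD4+ monocytes, 1 in M-MDSC, 1 in CD4 T cells and 1 in CD8 T and NK cells, each time S100P, S100A11 or both. DESeq2 called 3 genes in all cells, 1 in myeloid cells, 3 in monocytes, 3 in CD4- monocytes, 2 in eosinophils and basophils, and 0 in the other 6 sums. The values of every member overlapped between OS and healthy dogs in all 11.

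**Figure D4:**
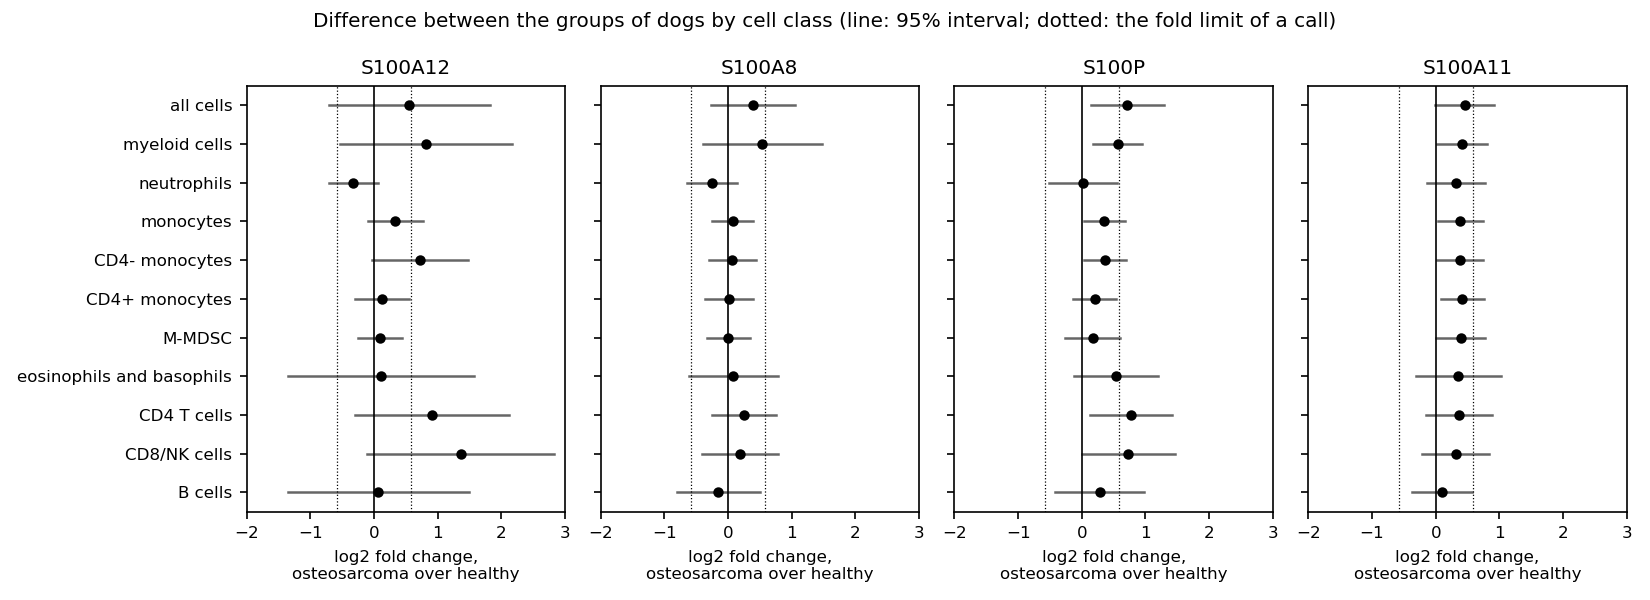
Log2 fold change of the 4 S100 genes in OS over healthy dogs in 11 sums of cells, with 95% intervals as lines and the fold limit of a call dotted. S100P stands at 0.71 in all cells and 0.02 in neutrophils and S100A11 at 0.45 and 0.31, and no value passed the test after adjustment.

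S100P and S100A11 had positive values in all 11 sums, of which S100P in neutrophils turned to -0.07 with age added and S100A11 in B cells to -0.09 with the replicate block. The sums of CD4 T cells, CD8 T and NK cells and B cells hold medians of only a few CPM of S100P. S100P held 178 to 503 CPM (median 276) in all cells of healthy dogs and 334 to 1037 CPM (median 509) in OS dogs. The log2 fold change was 0.71 (SE 0.27, unadjusted p = 0.0166 in edgeR's test). Monocytes, from which most S100P UMIs came, made up a median of 10.3% of the cells of healthy dogs (8.12% to 17.7%) and 16.1% in OS dogs (5.42% to 35.9%), and the monocyte markers summed to medians of 8069 and 10651 CPM in all cells. In a sum over all cells, more or fewer cells of a type and more or less RNA per cell cannot be told apart. In myeloid cells S100P was 679 to 1104 CPM (median 1001) in healthy dogs and 896 to 2186 CPM (median 1263) in OS dogs, with a log2 fold change of 0.56 (SE 0.19, unadjusted p = 0.00676, adjusted p = 0.869 in edgeR's test). In monocytes it differed by 0.35 (SE 0.15, unadjusted p = 0.0344 in edgeR's test), and in neutrophils by 0.02 (SE 0.26).

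S100A11 differed by 0.45 (SE 0.22) in all cells, 0.42 (SE 0.16) in CD4+ monocytes, 0.38 (SE 0.18) in CD4- monocytes, 0.40 (SE 0.19) in M-MDSC, 0.36 (SE 0.25) in CD4 T cells and 0.10 (SE 0.23) in B cells. In monocytes the healthy dogs ranged from 322 to 701 CPM (median 577) and the OS dogs from 490 to 1049 CPM (median 700). Healthy dog 2 had the lowest S100A11 in 10 of the 11 sums and OS dog 1 the highest in 8, so the values share dogs at both ends.

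S100A12 and S100A8 differed in the other direction in neutrophils than in the wider sums, in no case past the test. In neutrophils S100A12 was 18168 to 27087 CPM (median 20306) in healthy dogs and 10846 to 29912 CPM (median 17346) in OS dogs, a log2 fold change of -0.32 (SE 0.19, unadjusted p = 0.0955 in edgeR's test). S100A8 was 23856 to 37519 CPM (median 28565) against 17228 to 37978 CPM (median 23844), a log2 fold change of -0.25 (SE 0.19). In all cells S100A12 differed by 0.56, with a 95% interval of -0.70 to 1.81, and in myeloid cells by 0.81, with an interval of -0.54 to 2.16. Without healthy dog 7 these values were 1.48 and 1.45, and without OS dog 2 they were 0.17 and 0.11. Without OS dog 5 and without healthy dog 2 the value in all cells was 0.37. With PMN-MDSC left out of the sums of all dogs, the S100A12 values turned to -0.90 and -0.82, and with neutrophils also left out they were 0.67 and 0.39. The sums without PMN-MDSC still held the neutrophils of healthy dog 7. These had 63743 S100A12 UMIs, against 3217 to 12157 in neutrophils of the other healthy dogs, and their part in the turned values was not tested. For S100A8 the values were 0.39 over all cells and 0.54 over myeloid cells, which turned to -0.07 and -0.39 with PMN-MDSC left out and were 0.33 and 0.10 with neutrophils also left out. Single dogs stood apart in S100A8 as well. Healthy dog 7 held 5726 CPM in all cells (next healthy dog 2484), and OS dog 2 held 22805 CPM in myeloid cells (next OS dog 8487). In monocytes the log2 fold change was 0.34 (SE 0.21) for S100A12 and 0.07 (SE 0.16) for S100A8. None of the receptor, annexin or NADPH oxidase genes was called between OS and healthy dogs in any sum by edgeR. An unadjusted p under 0.05 in edgeR's test was found for at most 3 genes of a list in 1 sum. These were 3 of 6 annexin and other partners in myeloid cells, against 5.51% of all genes. The same list had 2 of 6 in monocytes (6.08% of all genes) and 2 of 6 in CD4- monocytes (6%).

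Whether a contrast between classes differed between OS and healthy dogs was also tested for the 5 contrasts with both groups. Of the genes tested 0 were called in each by edgeR's quasi-likelihood test, while 588 to 662 of 13422 to 14146 genes tested had an unadjusted p under 0.05, and no other tool was run. Of the 4 members in these 5 contrasts, S100A12 had such a p in 2 and S100P in 1. For S100A12, the contrast of neutrophils with monocytes was smaller in OS dogs by 0.76 on the log2 scale (SE 0.23, unadjusted p = 0.0022, Benjamini-Hochberg adjusted p = 0.94 in edgeR's test). The contrast of CD4+ with CD4- monocytes was smaller for S100A12 by 0.56 (SE 0.18, unadjusted p = 0.0035, adjusted p = 0.88 in edgeR's test) and lower for S100P by 0.22 (SE 0.09, unadjusted p = 0.015, adjusted p = 1 in the same edgeR test). Median S100A12 in healthy and OS dogs was 1362 and 1495 CPM in CD4+ monocytes, and 55.5 and 82.4 CPM in CD4- monocytes. The highest CD4- values were 241 CPM in OS dog 2 and 137 CPM in OS dog 5, and the part of granulocyte RNA in them was not tested. For S100A5, the contrast of M-MDSC with other monocytes differed by 1.08 (SE 0.45, unadjusted p = 0.018, adjusted p = 1.00 in edgeR's test).

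The cells that supplied a gene's UMIs differed from dog to dog, as the plot of sources shows. Neutrophils supplied a median of 56.0% of a healthy dog's S100A12 UMIs and 21.5% of an OS dog's. PMN-MDSC supplied 7.56% to 38.0% (median 24.9%) in healthy dogs, where they were 0.0162% to 0.322% of the cells. These healthy shares rest on 1 to 14 PMN-MDSC per dog, under the limit of 25 cells used for levels and tests. In OS dogs PMN-MDSC supplied 0% to 90.1% (median 47.1%) and were 0% to 4.42% of the cells, or 0 to 198 cells per dog. OS dog 2 (90.1%), OS dog 5 (84.6%), OS dog 9 (84.3%), OS dog 4 (75.7%) and OS dog 7 (59.9%) drew most of their S100A12 from PMN-MDSC. OS dog 3 drew none from PMN-MDSC, and OS dog 8 drew 0.197%, from 1 cell. S100P came mostly from monocytes (median 71.9%, 28.9% to 83.6%). S100A8 had no main source common to the dogs, with medians of 25.8% from monocytes, 20.9% from CD4 T cells, 11.2% from neutrophils, 9.34% from CD8 T and NK cells and 7.42% from PMN-MDSC. Single dogs did have one, with highest shares of 71.5% from neutrophils, 70.4% from PMN-MDSC and 53.5% from monocytes. S100A11 came from CD4 T cells (34.5%), monocytes (25.9%) and CD8 T and NK cells (15.3%).

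**Figure D5:**
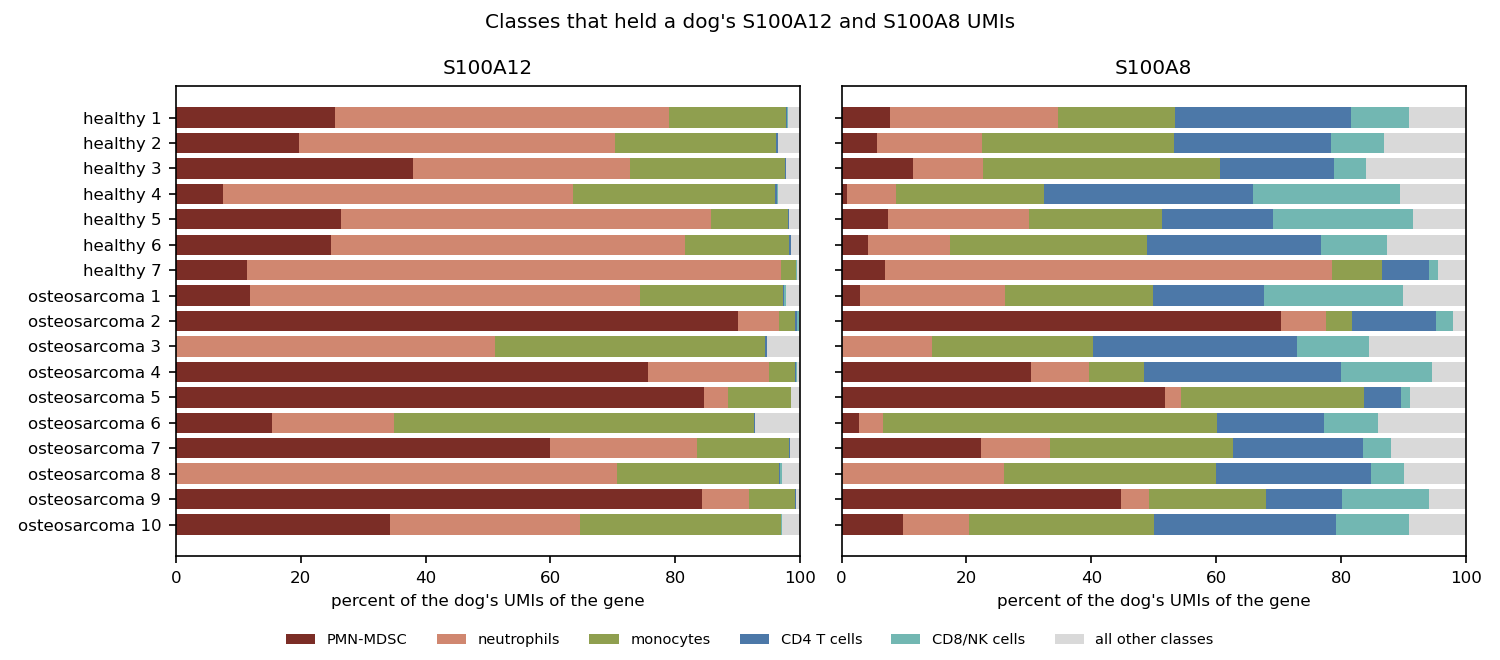
Percent of each dog's S100A12 UMIs (left) and S100A8 UMIs (right) that came from each group of cells, with 1 stacked bar per dog. PMN-MDSC supply 90.1% of the S100A12 UMIs in OS dog 2 and none in OS dog 3, and S100A8 also comes from T cells in every dog.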

How the data were processed

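The deposited files hold 1 matrix of UMI counts per dog, made by the authors with Cell Ranger 7.0.0 against CanFam3.1, with Seurat also named in the submitters' processing notes. Per the study's methods the annotation was restricted to certain biotypes and reads were counted with and without introns. Whether the deposited matrices include intronic reads is not given in the sources used here.

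Barcodes with 200 to 4500 genes, 500 to 20000 UMIs and under 10% mitochondrial UMIs were kept, and doublets were removed at 0.8% per 1000 barcodes. Cells were clustered with scanpy 1.11.5 and leidenalg 0.10.2 (2000 variable genes, 30 components, 20 neighbours, resolution 1) after correction across dogs. Clusters were named from markers that leave out S100 genes. Naming thresholds were set after the clusters were seen.

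Counts were summed per dog and class where 25 or more cells were present. Genes reaching 10 counts over the sums were tested by edgeR 4.0.16 (quasi-likelihood, TMM, dog as block between classes, Benjamini-Hochberg over all genes) in R 4.3.3, with DESeq2 1.42.0 as an alternative. Changes were called at adjusted p under 0.01 and absolute log2 fold change over 0.58. CPM are UMIs per 1000000 UMIs of the class. UMIs mark transcript 3' ends, so no length correction was made. Clustering and tests were tested on simulated data. Intervals and floors cover counting error only where they are given for counts. The p-values rest on the spread between these dogs, which edgeR shares in part over genes. In PMN-MDSC against neutrophils it was pooled fully over genes.

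Named were the S100 genes, partner genes past a test or among the 3 most abundant of their list, and the 5 genes most like each member. The members and lists were chosen with earlier results of these data known. Partner genes CD14 and NCF1 were not analysed here, and 1 partner gene is not reported here. Alternatives covered tool, scaling, filters, clustering, doublets, age, cell sums and left-out dogs.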

Additional observations from a re-analysis of the deposited data

Results flagged for a closer look

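In 92 groups of values (1 S100 gene in the healthy or the OS dogs of 1 sum of cells), 21 had a highest dog that stood far from the others by Dixon's ratio of the gap to the range. The limit used is set for about 1 in 20 independent groups of normally distributed values. These groups are of untransformed CPM and share dogs and in part cells, so the number to be found by chance here is not known. All 21 were high values, and the same few dogs recur.

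Healthy dog 7, with the most neutrophils, stood above the other healthy dogs in S100A12 in all cells (3478 CPM, next 736), in myeloid cells (6923 CPM, next 2387), in eosinophils and basophils (68.5 CPM, next 24.0), in CD4 T cells (12.0 CPM, next 3.90), in CD8 T and NK cells (17.4 CPM, next 2.45) and in B cells (38.5 CPM, next 6.53). Its S100A8 stood apart in all cells (5726 CPM, next 2484) and in myeloid cells (10237 CPM, next 5063). OS dog 2, with 5.40% neutrophils and 3.65% PMN-MDSC (0% to 4.42% in the OS dogs), stood above the other OS dogs in S100A12 in myeloid cells (17026 CPM, next 6331), in CD4- monocytes (241 CPM, next 137), in CD4 T cells (30.8 CPM, next 12.4) and in CD8 T and NK cells (38.9 CPM, next 18.4), in S100A8 in myeloid cells (22805 CPM, next 8487) and in S100P in myeloid cells (2186 CPM, next 1535).

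Single other values were S100P of OS dog 5 in all cells (1037 CPM, next 663) and in B cells (19.2 CPM, next 10.2), S100A12 of OS dog 4 in neutrophils (29912 CPM, next 20905), S100A12 of healthy dog 3 in CD4- monocytes (139 CPM, next 66.4), S100P of healthy dog 6 in M-MDSC (1075 CPM, next 781), S100P of OS dog 6 in eosinophils and basophils (875 CPM, next 390) and S100A11 of OS dog 1 in the same class (938 CPM, next 551).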

How the results depend on the processing

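Over the members and S100A5, 2216 values kept direction and side of the threshold under an alternative, 102 turned direction, 13 passed the threshold anew and 0 lost it. The remaining S100 genes were not followed in this way. The cause was not tested in any case. The first values given here are log2 fold changes of OS over healthy dogs that turned. With PMN-MDSC left out S100A12 was -0.90 in all cells and -0.82 in myeloid cells and S100A8 -0.069 and -0.39. With age added, S100P was -0.066 in neutrophils, S100A8 -0.037 in CD4+ monocytes, S100A12 -0.25 in B cells, and S100A5 -0.018 in myeloid cells and -0.075 in eosinophils and basophils. With doublets kept, S100A12 was -0.22 and S100A8 -0.083 in CD4+ monocytes, S100A8 -0.042 in M-MDSC and 0.22 in B cells, and S100A5 -0.23 in eosinophils and basophils. Without correction across dogs S100A12 was -0.054 and S100A8 -0.0077 in CD4+ monocytes, where S100A8 was -0.017 with S100 genes clustered and -0.010 at resolution 1.5. In M-MDSC S100A8 was -0.020 with DESeq2, -0.020 with RLE scaling, -0.013 with filterByExpr, -0.067 with a minimum of 10 cells and -0.059 at resolution 0.5. S100A5 was 0.0093 in CD4- monocytes at resolution 0.5 and -0.0092 in myeloid cells without neutrophils and PMN-MDSC. Between classes, S100A8 passed the fold limit in CD4+ against CD4- monocytes (0.63) and S100A12 in effector or memory against naive CD8 T cells (0.91) without correction across dogs, and S100A5 in PMN-MDSC against neutrophils with doublets kept (1.23), where it was -0.20 with DESeq2. S100P was 0.12 and S100A11 0.076 in CD4+ against CD4- monocytes with doublets kept, and S100A11 0.052 in neutrophils against monocytes of healthy dogs.

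Healthy and OS dogs 1 to 7 share only a number: 4 of 7 pairs correlated above 0.1 in their deviations (-0.56 to 0.62 over 3489 genes), and 1 healthy dog correlated best with its own number. With the replicate block 18 genes were called in neutrophils, 1 in M-MDSC and 3 in eosinophils and basophils, none a member. Under the block S100A8 was -0.36 in eosinophils and basophils and 0.085 in B cells, S100A11 -0.086 in B cells and S100A5 -0.10 in myeloid cells.

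DESeq2 called 3 genes in all cells, 1 in myeloid cells, 3 in monocytes, 3 in CD4- monocytes, 2 in eosinophils and basophils and 1822 in PMN-MDSC against neutrophils. The count in eosinophils and basophils was 0 with age added, doublets kept, filterByExpr or no filter. In CD4+ against CD4- monocytes 877 genes were called with doublets kept. With a minimum of 10 cells the median S100A12 in gamma-delta T cells was 9.42 CPM and S100A8 in NK cells 1445 CPM. Thinned to 1000 UMIs, the share of cells with a UMI was 2.41% for S100A8 and 19.4% for S100A11 in B cells, and 0.392% for S100A12, 82.2% for S100A8, 0.422% for S100P and 57.6% for S100A11 in memory CD4 T cells.

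Leaving out single dogs, the calls in eosinophils and basophils ran from 0 to 16 (16 without OS dog 4) and in monocytes from 0 to 1 (1 without OS dog 4). Values between OS and healthy dogs that turned were S100A12 in B cells (-0.59 to 1.23), CD4+ monocytes (-0.0039 to 0.29), M-MDSC (-0.0060 to 0.15) and eosinophils and basophils (-0.26 to 0.62), S100A8 in B cells (-0.38 to 0.050), CD4+ monocytes (-0.077 to 0.12), CD4- monocytes (-0.0052 to 0.16), M-MDSC (-0.069 to 0.094), eosinophils and basophils (-0.18 to 0.31) and monocytes (-0.035 to 0.12), S100P in neutrophils (-0.13 to 0.18), S100A11 in B cells (-0.027 to 0.19) and S100A5 in CD4- monocytes (-0.081 to 0.078), eosinophils and basophils (-0.26 to 0.43), monocytes (-0.14 to 0.039) and myeloid cells (-0.069 to 0.10). Between classes they were S100A11 in neutrophils against monocytes (-0.079 to 0.024) and S100A5 in PMN-MDSC against neutrophils (-0.40 to 0.33).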

Other observations

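Plasma cells of OS dog 5 (27 cells) held 1444 CPM of S100A12 (409 UMIs), where the median over 11 dogs was 4.96 CPM, and 1656 CPM of S100A8, where the median was 53.3 CPM. These are sums over the cells: in the median plasma cell of each of the 11 dogs both genes together made up 0% of UMIs, over the 569 plasma cells of these dogs the 95th percentile was 0.0174%, and the highest cell held 6.04%. The PMN-MDSC markers summed to at most 1254 CPM in plasma cells of a dog, against at least 81418 CPM in PMN-MDSC, and their part in these values was not tested.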
